A study of Mesocricetus auratus with 38 samples.

Results

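The high dose of a combined metabolic activator (CMA) supplement was compared with the high-fat diet (HFD) alone in the liver of male Golden Syrian hamsters, across every expressed gene. The members are the 10 RNA-seq libraries labelled HFD + MI_D2 (Dose II) and the 10 labelled HFD, which make up 20 of the 38 libraries of the series. Both groups ate a diet with 23% of its calories from fat and with added cholesterol for 12 weeks, and in the last 4 of these weeks the HFD group took a placebo (the milk-based vehicle) while the Dose II group took CMA each day. Dose II was 400 mg/kg each of L-carnitine, N-acetylcysteine (NAC) and nicotinamide riboside (NR) by mouth and 800 mg/kg of betaine in the drinking water. The other groups of the series are drawn on for side values only. Dose I (9 libraries, label HFD + MI_D1) received 200 mg/kg of each of the oral components and 400 mg/kg of betaine on the same diet, and the control group (9 libraries, of which 8 enter the fit) ate a diet with 11% of its calories from fat. The labels give an age of 22 weeks for all animals, livers were taken after 6 h of daytime fasting, and no genotype other than the strain is named. The model is a diet model with the 4 components always given together, so none of them can be told apart from the others, and each library was taken as 1 animal because the labels name none.

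Betaine gives a methyl group to homocysteine and is then broken down in the mitochondrion through dimethylglycine and sarcosine to glycine, with the carbons passing to folate. Homocysteine that is not remethylated enters transsulfuration, the route to cysteine, glutathione, taurine and sulfate, which NAC feeds from another side. NR is a precursor of NAD+, the cofactor of dehydrogenases and sirtuins, and L-carnitine carries long-chain fatty acids into mitochondria. The liver is the main site of each of these routes, and also the place where a high-fat diet stores triacylglycerol in lipid droplets.

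Total estimated counts were 5201900 to 6498370 per HFD library and 4743240 to 8417320 per Dose II library. Hepatocyte markers were among the most abundant transcripts in both groups: Alb, the gene for albumin, took 11.3% to 15.8% of counts in the HFD libraries and 10.1% to 14.9% in the Dose II libraries, and Ttr, Apoa1 and Serpina1 did not pass the test. In bulk liver, fewer cells of a type and less RNA per cell cannot be told apart. Of 14631 gene symbols, 9099 were expressed highly enough to be tested with edgeR's quasi-likelihood test, and a change was called where the adjusted p (Benjamini-Hochberg) was under 0.1. Fold changes below are log2 values with their SE, Dose II relative to HFD, n = 10 libraries in each group, and levels are in CPM, a gene's counts scaled by the effective total of its library.

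At Dose II, 307 genes rose (3.37% of those tested) and 205 fell (2.25%), together 512 genes (5.63%). Most changes were small. The median log2 fold change was 0.40 among genes that rose and -0.47 among those that fell, 17 genes rose and 19 fell by more than 2-fold, and the median over all tested genes was -0.0040. The balance of directions moved with scaling: 193 rose and 258 fell without scaling beyond library totals, 240 rose and 215 fell in a fit of the 20 libraries alone, and limma-trend on log2(TPM + 1) called 151 up and 439 down. Adding back the control library that the study left out, which is in neither group but enters the estimate of the spread, gave 147 genes that rose and 97 that fell. With each library left out in turn the share that rose ran from 2.06% to 4.29% of tested genes and the share that fell from 1.24% to 3.16%. The share that rose dropped by over 1.5 times without DII135 (2.06%), H115 (2.12%), DII138 (2.19%) or DII131 (2.23%), and the share that fell did so without DII135 (1.24%), H114 (1.35%) or DII136 (1.42%). Libraries are named here by group (H for HFD, DII for Dose II) and the number in their label.

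Gene length moved with the groups to a small degree. The rank correlation, across genes, of a library's deviation from the mean with transcript length was -0.217 to 0.150 in the HFD libraries (median -0.005) and -0.293 to 0.092 in the Dose II libraries (median -0.141), so the Dose II libraries held relatively more of the short transcripts. Genes that rose had a median relative transcript length of 0.80 and genes that fell a length of 1.29, against 1.01 for all tested genes. With offsets that remove each library's length trend, 255 genes rose (2.80%) and 181 fell (1.99%), and 382 of the 512 genes were called again. Where these offsets changed the number of calls in a group of genes, the change is given beside that group, and the part of length in those results was not otherwise tested.

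The first principal component of the 500 most variable genes over the 20 libraries held 20.9% of their variance. Its score was 4.96 ± 7.23 (SD) in Dose II and -4.96 ± 5.78 in HFD, a difference of 9.93 (two-sided permutation test, p = 0.00398), and the ranges of the groups overlapped, from -6.05 to 16.4 and from -14.7 to 3.90. When all tested genes were used instead, the first component (16.2% of the variance) differed by 4.89 (p = 0.449) and the second (13.5%) by 19.6 (p = 0.00018).

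For 10 genes every Dose II library lay above every HFD library (0.110% of tested genes), and for 1 gene every Dose II library lay below (0.0110%). The 10 included Dmgdh, Gnmt, Sult1a1, Prodh, Hoga1, Acsm1, Creg1, Ppfia1 and Tmco6, and the 1 that lay below was Abi1. The first 6 named are metabolic enzymes of betaine breakdown, methylation, sulfonation, proline and hydroxyproline breakdown and fatty acid activation. Creg1, Ppfia1 and Tmco6 fall outside the naming rule and were chosen after their values were seen. Creg1, a secreted lysosomal glycoprotein, was at 262 to 326 CPM (median 307) in the HFD libraries and 345 to 390.0 CPM (median 366) in the Dose II libraries, a log2 fold change of 0.27 ± 0.057. Ppfia1, a liprin scaffold protein, rose by 0.25 ± 0.058, and Tmco6 by 0.28 ± 0.067.

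Betaine and sarcosine enzymes were among the changes with the smallest p-values. Of 19 genes listed for betaine use, sarcosine and the methionine cycle, 16 were tested, 4 rose, none fell, and the median log2 fold change was 0.093. Dmgdh, the mitochondrial dehydrogenase that turns dimethylglycine into sarcosine, was at 209 to 343 CPM (median 289) in the HFD libraries and 410.2 to 562 CPM (median 495) in the Dose II libraries. The groups did not overlap, and the log2 fold change was 0.75 ± 0.086 (adjusted p = 7.49e-07, the smallest of all tested genes). Gnmt, which makes sarcosine by methylating glycine with S-adenosylmethionine, was at 673 to 1671 CPM (median 1254) in the HFD libraries and 1719 to 3620 CPM (median 2736) in the Dose II libraries, again without overlap, a rise of 1.25 ± 0.19 (adjusted p = 0.00016). The control libraries had median levels of 377 CPM for Dmgdh and 1499 CPM for Gnmt, below the lowest Dose II library for each.

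Bhmt2, a homocysteine methyltransferase that is the paralog of Bhmt, was at 181 to 338 CPM (median 252) in the HFD libraries and 299 to 527 CPM (median 401) in the Dose II libraries, and 7 of the 10 Dose II libraries lay above all HFD libraries (0.72 ± 0.13, adjusted p = 0.00188). Bhmt itself, the enzyme that uses betaine, was not analysed here. Sardh, the next enzyme after Dmgdh, turns sarcosine into glycine. It was at 400.1 to 687 CPM (median 509) in HFD and 579 to 736 CPM (median 655) in Dose II, with overlapping groups, and rose by 0.33 ± 0.10 (adjusted p = 0.0794), a call that was lost in 2 of the 10 alternative fits that tested it and in 12 of the 20 fits without 1 library (adjusted p up to 0.151, without H115). The rest of the cycle did not pass the test: Mat1a, which makes S-adenosylmethionine, had a log2 fold change of 0.15 ± 0.094, Chdh, which makes betaine aldehyde from choline, 0.21 ± 0.091, and the methionine synthase Mtr -0.17 ± 0.21. The enzymes that rose handle sarcosine, dimethylglycine or homocysteine, and the other tested members of the list did not pass.

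Of 25 listed folate genes 16 were tested, 3 rose and none fell (median 0.11). Fpgs, which adds the glutamate tail that holds folate in the cell, was at 14.8 to 31.2 CPM (median 22.9) in the HFD libraries and 21.8 to 61.6 CPM (median 43.9) in the Dose II libraries and rose by 0.92 ± 0.21 (adjusted p = 0.0109). Shmt2, the mitochondrial enzyme that splits serine into glycine and a folate-bound carbon, was at 80.6 to 181 CPM (median 115.4) in the HFD libraries and 153 to 216 CPM (median 192) in the Dose II libraries. For both, most but not all Dose II libraries lay above the HFD range (8 for Fpgs, 6 for Shmt2), and the fold change of Shmt2 was 0.59 ± 0.14 (adjusted p = 0.0116). Mthfd1, which interconverts the folate-bound carbons in the cytosol, rose by 0.24 ± 0.080 (adjusted p = 0.0907), a call lost in 4 of the 10 alternative fits that tested it and in 15 of the 20 fits without 1 library (adjusted p up to 0.184, without H113). Shmt1, the cytosolic paralog of Shmt2, was at 0.14 ± 0.093 and did not pass.

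**Figure D1:**
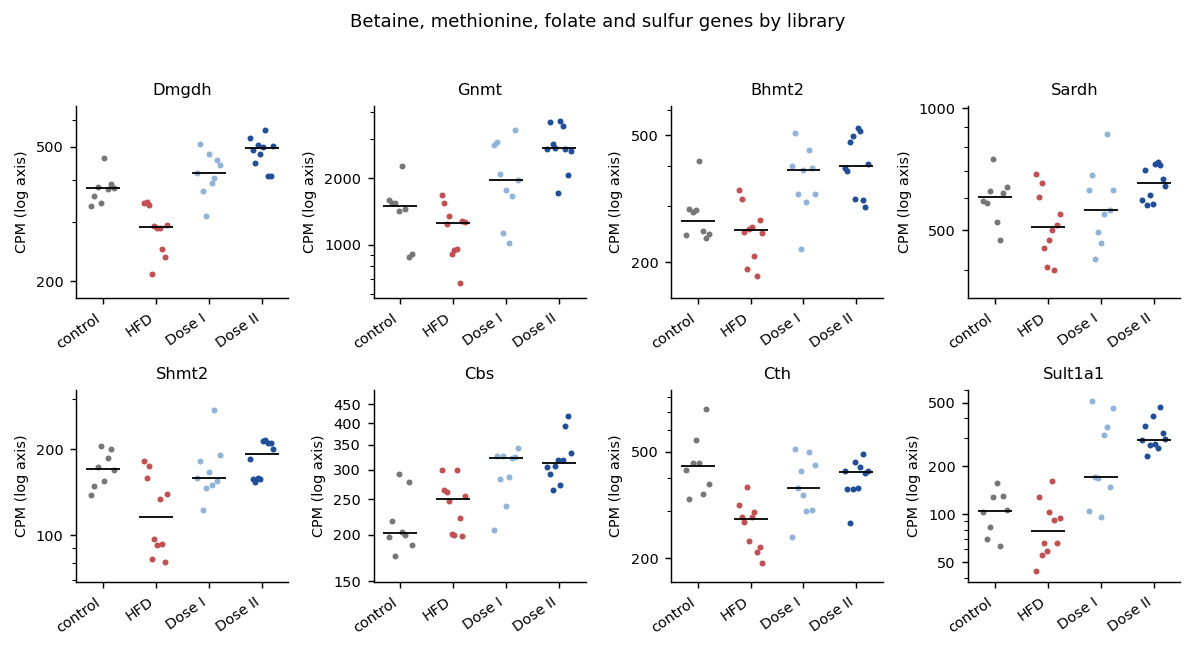
Level of 8 genes of betaine, folate and sulfur metabolism in each library, in CPM on log axes, for the 4 groups; each point is 1 library and each line the group median. For Dmgdh, Gnmt and Sult1a1 all 10 Dose II libraries lie above all 10 HFD libraries, and for the other 5 genes the groups overlap.

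Transsulfuration and the use of cysteine sulfur held the highest share of changed members among the 52 lists. Of 19 listed genes 14 were tested, and 6 of these rose, none fell, with a median of 0.21; all 6 were called again with the length-trend offsets and in the fit of 20 libraries. Cbs, which joins homocysteine to serine, was at 199 to 300.2 CPM (median 250.5) in the HFD libraries and 264 to 419 CPM (median 313) in the Dose II libraries and rose by 0.40 ± 0.10 (adjusted p = 0.0256). Cth, which cuts the product to release cysteine, was at 192 to 369 CPM (median 279.6) in the HFD libraries and 271 to 488 CPM (median 420.0) in the Dose II libraries and rose by 0.58 ± 0.13 (adjusted p = 0.0116). Both ranges overlapped, with 7 Dose II libraries above all HFD libraries for Cbs and 6 for Cth.

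Sult1a1, the phenol sulfotransferase that puts a sulfate on small phenols, had the largest rise among genes with an HFD median above 10 CPM. It was at 44 to 161 CPM (median 78.7) in the HFD libraries and 232 to 470.4 CPM (median 293) in the Dose II libraries, with no overlap and a log2 fold change of 1.87 ± 0.26 (adjusted p = 3.23e-05). Sulfotransferases are a family of similar genes that can share reads in the authors' counting, so the split among them is uncertain; the only other family member on the list that was tested, Sult1b1, had a log2 fold change of -0.082 ± 0.089 and did not pass. Papss2, which makes the activated sulfate that these enzymes use, rose by 0.60 ± 0.17 (adjusted p = 0.0489), a call that ended without DII135 (adjusted p = 0.125). Suox, which oxidizes sulfite to sulfate in mitochondria, was at 117.3 to 201 CPM (median 138.5) in the HFD libraries and 138.3 to 263 CPM (median 212) in the Dose II libraries and rose by 0.50 ± 0.11 (adjusted p = 0.0104). Got1, the cytosolic aspartate aminotransferase, which also acts on cysteine sulfinate, rose by 0.53 ± 0.13 (adjusted p = 0.0214). The taurine branch did not pass: Cdo1, the dioxygenase that opens it, was at 0.091 ± 0.060 and Csad at -0.13 ± 0.13. The members that rose covered the steps from homocysteine to cysteine and from sulfite to activated sulfate and sulfonation.

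Of 28 tested glutathione genes 4 rose and 1 fell (median 0.088), and with length-trend offsets 2 rose and 1 fell. Without H115 or without DII138 2 rose. Gstk1, a glutathione transferase of mitochondria and peroxisomes, was at 248 to 373 CPM (median 287) in the HFD libraries and 335 to 469 CPM (median 389) in the Dose II libraries and rose by 0.41 ± 0.087 (adjusted p = 0.00616). Gpx4, the peroxidase that reduces lipid hydroperoxides, was at 269 to 412 CPM (median 324) in the HFD libraries and 327 to 477 CPM (median 414) in the Dose II libraries and rose by 0.31 ± 0.076 (adjusted p = 0.0167). Gpx1, the abundant cytosolic peroxidase, had a similar fold change of 0.30 ± 0.11 without passing (adjusted p = 0.118). Neither enzyme of glutathione synthesis that was tested passed: the fold change was -0.082 ± 0.15 for Gclc, the catalytic subunit of the first and rate-limiting step, and -0.13 ± 0.14 for Gss. The other calls were weaker. Glrx5, a mitochondrial glutaredoxin, rose by 0.26 ± 0.078 and Gstz1, an isomerase of tyrosine breakdown, by 0.21 ± 0.065; neither was called with the length-trend offsets (adjusted p = 0.111 and 0.101), and without H115 neither passed (adjusted p = 0.14 and 0.14). Gstp1 fell by 0.27 ± 0.092 (adjusted p = 0.0923), a call lost in 3 of the 10 alternative fits that tested it and in 12 of the 20 fits without 1 library (adjusted p up to 0.13, without H118).

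Among 24 tested antioxidant genes 3 rose and 1 fell, and 2 fell with the length-trend offsets. Mpv17l, a membrane protein of mitochondria and peroxisomes linked to reactive oxygen, was at 19.7 to 49.3 CPM (median 28.6) in the HFD libraries and 33 to 91.7 CPM (median 48.6) in the Dose II libraries and rose by 0.84 ± 0.20 (adjusted p = 0.0155). Msrb2, which repairs oxidized methionine in mitochondria, changed little in size but evenly: 9 of 10 Dose II libraries lay above all HFD libraries, with a rise of 0.20 ± 0.050 (adjusted p = 0.0191). The peroxiredoxin Prdx5 rose by 0.28 ± 0.081 (adjusted p = 0.0529), a call lost without H117 or DII137 (adjusted p up to 0.11). Hmox1, the heme oxygenase induced by Nrf2, fell by 0.37 ± 0.11 (adjusted p = 0.0536), a call lost without DII135 (adjusted p = 0.103), and the transcription factor gene itself, Nfe2l2, was at -0.23 ± 0.12 and did not pass. The superoxide dismutases of the cytosol (Sod1, 0.071 ± 0.079) and of mitochondria (Sod2, 0.14 ± 0.056) did not pass either.

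NAD genes changed little. Of 22 tested, 1 rose (4.55%, beside 3.37% of all tested genes) and none fell (median 0.056). The 1 was Sirt3, the main deacetylase of mitochondria, at 38.3 to 61.6 CPM (median 45.7) in the HFD libraries and 46.7 to 68.2 CPM (median 58.5) in the Dose II libraries (0.30 ± 0.086, adjusted p = 0.0486), a call lost without H113, H115, H118, DII131 (adjusted p up to 0.111). The kinase that phosphorylates NR, Nmrk1, had a log2 fold change of 0.23 ± 0.084 (adjusted p = 0.132), and Nampt, the rate-limiting enzyme of NAD salvage, one of -0.0041 ± 0.082. In the route from tryptophan to kynurenine, 2 of 16 tested genes rose (median 0.15): Tdo2, the liver enzyme that opens the tryptophan ring, by 0.58 ± 0.19 (adjusted p = 0.0817), and Afmid, the next step, by 0.27 ± 0.081 (adjusted p = 0.0619). Tdo2 was at 269.9 to 505 CPM (median 399.7) in the HFD libraries and 407 to 848 CPM (median 626) in the Dose II libraries, with 6 Dose II libraries above the HFD range. Its call was lost in 2 of the 10 alternative fits that tested it and in 11 of the 20 fits without 1 library (adjusted p up to 0.163, without DII131). That of Afmid was lost in 6 of the 20 (adjusted p up to 0.145, without H115). No gene of this route was called with all 38 libraries or with limma-trend on log2(TPM + 1) (adjusted p = 0.116 for Afmid), and 1 rose in the fit of the 20 libraries alone.

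Of 24 tested genes of nitrogen disposal (the urea cycle, ammonia supply and transaminases) 7 rose, none fell and 17 did not pass, with a median of 0.24, and 7 rose with the length-trend offsets as well. Cps1, the mitochondrial synthetase that opens the urea cycle, was at 2979 to 5959 CPM (median 4055) in the HFD libraries and 4391 to 8399 CPM (median 5643) in the Dose II libraries and rose by 0.45 ± 0.12 (adjusted p = 0.0338). Ass1, which brings the second nitrogen in, was at 1012 to 1811 CPM (median 1337) in the HFD libraries and 1367 to 2779 CPM (median 1863) in the Dose II libraries and rose by 0.48 ± 0.13 (adjusted p = 0.0344). The ranges overlapped for both, with 4 and 6 Dose II libraries above all HFD libraries. Nags, which makes the activator of Cps1, rose by 0.34 ± 0.11 (adjusted p = 0.0951). Its call was lost in 14 of the 20 fits without 1 library (adjusted p up to 0.188, without H118) and with limma-trend on log2(TPM + 1) (adjusted p = 0.201). The remaining enzymes of the cycle did not pass: Otc had a fold change of 0.091 ± 0.084, Asl of 0.36 ± 0.14 and Arg1 of 0.23 ± 0.14.

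The alanine aminotransferases rose in both forms. Gpt2, the mitochondrial form, was at 74.3 to 185 CPM (median 120.4) in the HFD libraries and 113.1 to 309.8 CPM (median 241) in the Dose II libraries, with 8 Dose II libraries above the HFD range (0.94 ± 0.20, adjusted p = 0.00671). Gpt, the cytosolic form, was at 304 to 506 CPM (median 373) in HFD and 359.8 to 675 CPM (median 501) in Dose II and rose by 0.33 ± 0.11 (adjusted p = 0.0914), a call lost in 4 of the 10 alternative fits that tested it and in 13 of the 20 fits without 1 library (adjusted p up to 0.186, without H115). Etnppl, a lyase of phosphoethanolamine from the transaminase family, was at 37.3 to 95.4 CPM (median 53.3) in the HFD libraries and 50.6 to 168 CPM (median 108.5) in the Dose II libraries and rose by 0.95 ± 0.22 (adjusted p = 0.0107). Cps1, Ass1 and Etnppl are also periportal genes: of 24 tested genes of the periportal zone 5 rose and 1 fell (median 0.15; 3 to 8 rose in the fits without 1 library, with 8 without H111 and 3 without H114, DII135 or DII136), and of 17 pericentral genes none was called (median 0.15). The difference between the zones was not tested.

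Among other enzymes of amino acid breakdown, 8 of 35 rose and 1 fell (median 0.17), and 4 rose and 1 fell with the length-trend offsets. Over the fits without 1 library 3 (without H115 or H118) to 9 rose. The strongest were the first enzyme of proline breakdown and the last of hydroxyproline breakdown. Prodh, proline dehydrogenase, was at 112.96 to 156 CPM (median 132.4) in the HFD libraries and 167 to 215 CPM (median 180.4) in the Dose II libraries, without overlap and with a rise of 0.46 ± 0.074 (adjusted p = 0.000514). Hoga1, the aldolase that releases glyoxylate and pyruvate from hydroxyproline carbons, was at 205 to 366 CPM (median 316) in the HFD libraries and 379 to 516 CPM (median 414) in the Dose II libraries, also without overlap (0.53 ± 0.10, adjusted p = 0.00218). Control libraries had lower medians still, 97.1 CPM for Prodh and 217 CPM for Hoga1. Glyoxylate handling downstream did not pass, with fold changes of 0.17 ± 0.15 for Agxt and 0.14 ± 0.084 for Grhpr. Hpd, an enzyme of tyrosine breakdown, was at 1113 to 1771 CPM (median 1571) in the HFD libraries and 1646 to 2082 CPM (median 1878) in the Dose II libraries and rose by 0.32 ± 0.088 (adjusted p = 0.0389). Sds, which deaminates serine to pyruvate, rose by 1.08 ± 0.34 (adjusted p = 0.0691), and its call was lost in 7 of the 20 fits without 1 library (adjusted p up to 0.165, without DII135). Phgdh, the first enzyme of serine synthesis, fell by 0.96 ± 0.31 from low levels, 1.41 to 9.1 CPM (median 5.57) in HFD and 1.24 to 4.73 CPM (median 2.96) in Dose II (adjusted p = 0.0864), and its call was lost in 2 of the 9 alternative fits that tested it and in 13 of the 20 fits without 1 library (adjusted p up to 0.156, without H117). Upb1, Pcbd1 and Gstz1 rose by 0.17 to 0.32, and none of these 3 was called with the length-trend offsets. Each of them also lost its call in 4 to 17 of the 20 fits without 1 library, with adjusted p up to 0.127 for Upb1 (without DII138), 0.182 for Pcbd1 (without H118) and 0.14 for Gstz1 (without H115).

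Branched-chain amino acid genes leaned upward. Of 28 tested, 7 rose, none fell, and 25 had a positive fold change (median 0.16), while 3 rose with the length-trend offsets. Over the fits without 1 library 3 (without H115, among others) to 9 rose. With all 38 libraries 2 rose, on log2(TPM + 1) 2 and in the fit of the 20 libraries alone 4. The 3 that kept their call with the offsets were Ppm1k, Mmaa and Mccc1. Ppm1k, the phosphatase that activates the branched-chain ketoacid dehydrogenase, was at 69.7 to 150.5 CPM (median 111.3) in the HFD libraries and 107.6 to 275 CPM (median 176) in the Dose II libraries and rose by 0.64 ± 0.15 (adjusted p = 0.0147). Mmaa, which loads vitamin B12 onto methylmalonyl-CoA mutase, was at 105.01 to 126.8 CPM (median 113.8) in the HFD libraries and 117.4 to 153 CPM (median 139.6) in the Dose II libraries (0.26 ± 0.055, adjusted p = 0.00671). Mccc1, a subunit of the leucine-pathway carboxylase, rose by 0.21 ± 0.056 (adjusted p = 0.0292), a call lost with limma-trend on log2(TPM + 1) (adjusted p = 0.168). The calls of Bcat2, Bckdha, Mccc2 and Pcca, with rises of 0.57, 0.36, 0.32 and 0.21, each ended with the offsets and in 11 to 14 of the 20 fits without 1 library, with adjusted p up to 0.186 (without DII131), 0.182 and 0.18 (without H115) and 0.204 (without H113). None of 15 tested genes of lysine breakdown passed (median 0.093).

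In the tricarboxylic acid cycle and pyruvate group, 4 of 32 tested genes rose and 1 fell (median 0.092), and 2 rose and 1 fell with the length-trend offsets. Idh2, the mitochondrial isocitrate dehydrogenase that makes NADPH, was at 311 to 522 CPM (median 442) in the HFD libraries and 498 to 682 CPM (median 545) in the Dose II libraries and rose by 0.36 ± 0.075 (adjusted p = 0.00544). Pdk2, a kinase that switches off pyruvate dehydrogenase, rose by 0.39 ± 0.10 (adjusted p = 0.0256). Mpc1, a subunit of the mitochondrial pyruvate carrier, rose by 0.23 ± 0.057 (adjusted p = 0.0158), a call that ended with the offsets (adjusted p = 0.292), as did that of Sdhb, a subunit of succinate dehydrogenase (lost in 15 of the 20 fits without 1 library, adjusted p up to 0.197, without H115). The 1 that fell was Me1, given with the lipid genes.

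Fold changes of respiratory chain and ribosomal genes were small and mostly positive, and most did not pass. Of 60 tested nuclear genes of oxidative phosphorylation 59 had a positive fold change (median 0.13), and 5 were called, Cox7c, Uqcr11, Ndufa13, Sdhb and Ndufs7, of which all but Cox7c lost their call without H115 (adjusted p from 0.138 to 0.197). Of 27 tested cytosolic ribosomal proteins 26 had a positive fold change (median 0.18), and 7 were called. With the length-trend offsets the medians were 0.066 and 0.10 and no gene of either list was called. Calls were also lost in other fits: none was made in either list with all 38 libraries or on log2(TPM + 1), and none and 1 without scaling beyond library totals. In the 20 fits without 1 library the number called ran from 1 (without H115, among others) to 15 (without H110) for the respiratory chain and from 3 (without H115, among others) to 13 (without DII133) for the ribosome. Of 23 genes listed for their short transcripts 3 rose (median 0.16), and with the offsets 2 rose (median 0.064). Of 37 genes listed for their long transcripts 4 fell (median -0.10), and with the offsets none did (median 0.013). The 2 lists differ in more than length, since the 3 short genes that rose, Timm13, Chchd1 and Romo1, are all mitochondrial. None of the 13 genes of mitochondrial DNA was called (median 0.051; 1 fell with the offsets), and their share of counts was 10.4% ± 0.656 (SD) in HFD and 10.8% ± 0.845 in Dose II. Among 67 mitochondrial ribosomal proteins 2 rose (2.99%, beside 3.37% of all tested genes). They were Mrpl4 (0.40 ± 0.079, adjusted p = 0.00333), with and without the offsets, and Mrpl14, only without them (adjusted p = 0.174 without DII131).

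In carnitine and fatty acid metabolism the calls fell on the activation of medium-chain acids. None of 9 tested carnitine genes was called (median -0.068). Cpt1a, which makes acylcarnitines at the outer mitochondrial membrane and controls the rate of entry, was at 85.4 to 287 CPM (median 186) in the HFD libraries and 117.9 to 228 CPM (median 149.6) in the Dose II libraries, a log2 fold change of -0.20 ± 0.16 that did not pass. Bbox1, the last enzyme of carnitine synthesis, had a fold change of -0.51 ± 0.18 (adjusted p = 0.108), and the carnitine importer Slc22a5 one of -0.079 ± 0.15. In other fits Bbox1 was called as a fall, with DESeq2 (adjusted p = 0.0752) and with limma-trend on log2(TPM + 1) (adjusted p = 0.0693). A fall of 1 listed gene was also called in the fit of the 20 libraries alone, without scaling beyond library totals and with a strict filter on low counts. Bbox1 was not called in 15 of the 20 fits without 1 library. Aldh9a1 was called as a rise with DESeq2 (adjusted p = 0.0845). None of the 9 was called with the length-trend offsets or with all 38 libraries. Of 26 tested genes of mitochondrial fatty acid oxidation 3 rose and none fell (median 0.088), all 3 of them medium-chain acyl-CoA synthetases. Acsm1 was at 579.7 to 819 CPM (median 769) in the HFD libraries and 838 to 963 CPM (median 911) in the Dose II libraries, without overlap, and rose by 0.27 ± 0.064 (adjusted p = 0.0126). Acsm5 was at 399 to 761 CPM (median 607) in the HFD libraries and 604 to 1063 CPM (median 855) in the Dose II libraries (0.45 ± 0.11, adjusted p = 0.0217). Acsm3 rose by 0.30 ± 0.090 (adjusted p = 0.0618), a call lost in 8 of the 20 fits without 1 library (adjusted p up to 0.14, without H115). The call of Acsm3 was also lost with limma-trend on log2(TPM + 1) (adjusted p = 0.176). The Acsm genes are similar in sequence and can share reads. The dehydrogenases of the spiral did not pass. Fold changes were 0.0069 ± 0.063 for Acadm, 0.026 ± 0.049 for Acadl and 0.060 ± 0.11 for Hadha. They were larger for Acads (0.36 ± 0.13, adjusted p = 0.129) and Hadh (0.14 ± 0.059, adjusted p = 0.197).

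Of 49 tested peroxisomal genes 4 rose (8.16%) and 2 fell (4.08%), beside 3.37% and 2.25% of all tested genes. The median of the list was 0.039. The number that rose was 7 with DESeq2, and in the fits without 1 library it ran from 2 (without DII135) to 9 (without H110), with 7 without H112, while 2 to 4 fell (4 without H113). Dao, the D-amino acid oxidase, rose by 0.40 ± 0.10 (adjusted p = 0.0178), and Uox, urate oxidase, by 0.27 ± 0.073 (adjusted p = 0.0338). Abcd3, a peroxisomal half-transporter that takes in branched-chain and bile acid precursors, was at 184 to 399.8 CPM (median 287) in the HFD libraries and 155 to 241 CPM (median 198) in the Dose II libraries and fell by 0.55 ± 0.13 (adjusted p = 0.0142). Gnpat, which starts the synthesis of ether lipids, was at 75.6 to 155 CPM (median 100) in the HFD libraries and 44.1 to 99.7 CPM (median 60.8) in the Dose II libraries and fell by 0.72 ± 0.17 (adjusted p = 0.0155).

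**Figure D2:**
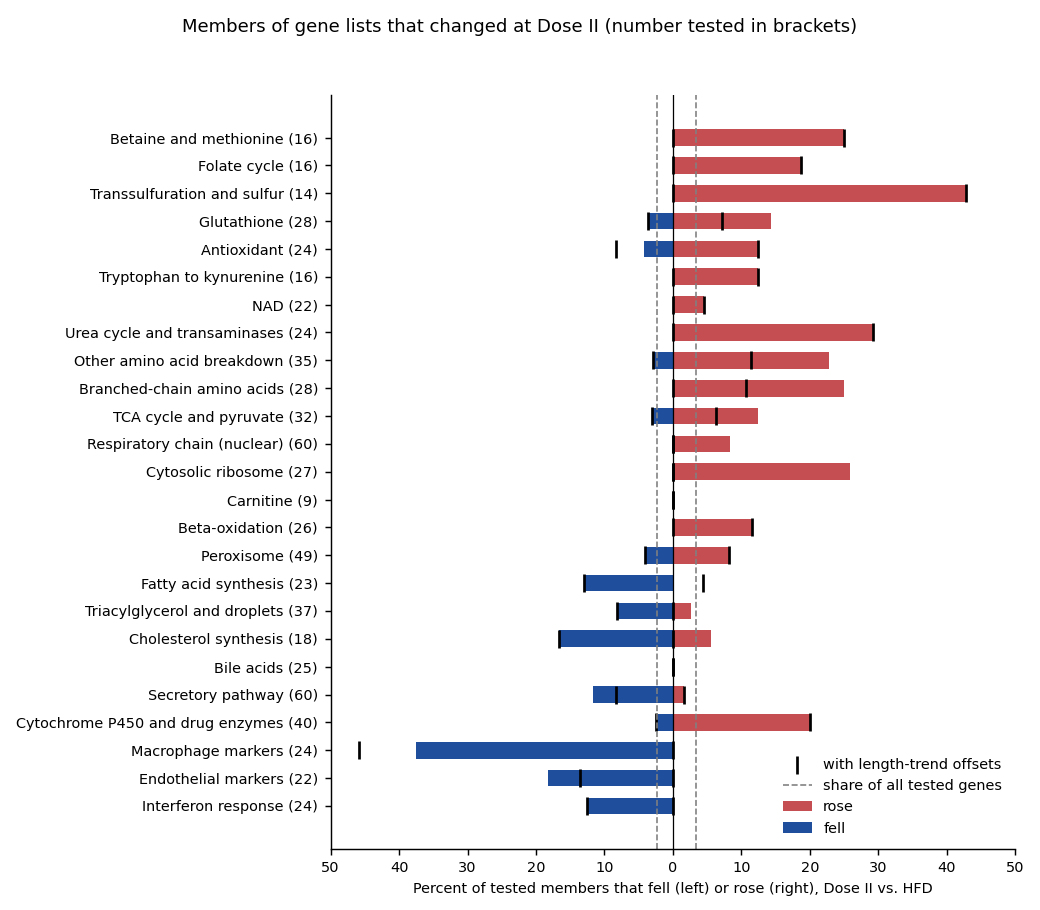
Percent of tested genes in each of 25 lists called higher (right, red) or lower (left, blue) at Dose II than in HFD, with the number tested in brackets; black marks give the shares with length-trend offsets and dashed lines the shares over all tested genes, 3.37% and 2.25%. The bars of the respiratory chain and the cytosolic ribosome have their marks at 0, whereas those of betaine, folate, sulfur and urea genes have theirs at the end of the bar.

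Among genes that make and store fat the calls were mostly falls. Of 23 tested genes of fatty acid synthesis, elongation and desaturation 3 fell and none rose, and 19 had a negative fold change (median -0.19). With the length-trend offsets 1 rose and 3 fell. Acly, the citrate lyase that supplies acetyl-CoA for fat and sterols, fell by 2.17 ± 0.56 (adjusted p = 0.0256), but its level among HFD livers was very uneven. It was at 13.8 to 476 CPM (median 23.9) in the HFD libraries and 7.72 to 50.2 CPM (median 15.3) in the Dose II libraries, and the HFD libraries H111 (476 CPM), H112 (194 CPM) and H113 (142 CPM) stood high. These 3 carry consecutive numbers, the labels do not say what the numbers stand for, and the part of any order of handling in this fold change was not tested. Without H111 the call ended (adjusted p = 0.14), as it did on log2(TPM + 1) (adjusted p = 0.172). In the control group the median was 729 CPM.

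Me1, the malic enzyme that supplies NADPH for fat synthesis, was at 69.2 to 311 CPM (median 155) in the HFD libraries and 42.9 to 157 CPM (median 70.4) in the Dose II libraries and fell by 1.07 ± 0.27 (adjusted p = 0.0251). Elovl2, the elongase of polyunsaturated fatty acids, was at 199 to 334 CPM (median 256) in the HFD libraries and 159.6 to 245 CPM (median 181) in the Dose II libraries and fell by 0.49 ± 0.11 (adjusted p = 0.0116). For these genes 5 and 6 Dose II libraries lay below all HFD libraries. Acaca, the carboxylase that commits acetyl-CoA to fat, had a fold change of -0.56 ± 0.28 (adjusted p = 0.273) and the desaturase Scd1 one of -0.44 ± 0.22 (adjusted p = 0.278), and the regulators Srebf1 (0.088 ± 0.12) and Mlxipl (0.28 ± 0.10) had fold changes above 0. None of these 4 passed, and Fasn was not analysed here.

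In the group of triacylglycerol assembly, lipid droplets and lipolysis 3 of 37 tested genes fell (8.11%) and 1 rose (2.70%). Of all tested genes 2.25% fell and 3.37% rose. The median of the list was 0.027, and none of its genes rose with the length-trend offsets. Over the fits without 1 library 1 (without DII135, among others) to 4 fell. Pnpla3, a lipase of lipid droplets that responds to carbohydrate and insulin, was at 46.5 to 249 CPM (median 110.5) in the HFD libraries and 16.9 to 99.3 CPM (median 29.4) in the Dose II libraries and fell by 1.49 ± 0.36 (adjusted p = 0.0158). Plin2, the coat protein of hepatocyte lipid droplets, was at 348 to 2555 CPM (median 629.5) in the HFD libraries and 49.3 to 665 CPM (median 265) in the Dose II libraries, and 7 Dose II libraries lay below all HFD libraries. Its fall of 1.41 ± 0.46 (adjusted p = 0.0864) was lost in 4 of the 10 alternative fits that tested it and in 10 of the 20 fits without 1 library (adjusted p up to 0.212, without H118). That library held by far the highest level. Fabp5, a fatty acid binding protein, fell by 1.05 ± 0.34 (adjusted p = 0.08), with the call lost in 10 of the 20 fits without 1 library (adjusted p up to 0.149, without H111). Mogat2, an acyltransferase, rose by 1.24 ± 0.42 (adjusted p = 0.097), from 0.168 to 6.84 CPM (median 1.39) in HFD, a call lost in 7 of the 9 alternative fits that tested it and in 15 of the 20 fits without 1 library (adjusted p up to 0.198, without DII137). Dgat1 (-0.022 ± 0.082), Dgat2 (0.36 ± 0.15), Pnpla2 (0.38 ± 0.15), the lipase that starts droplet breakdown, and the fatty acid importer Cd36 (-0.0044 ± 0.12) did not pass.

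Cholesterol synthesis showed 3 falls and 1 rise among 18 tested genes, and 13 had a negative fold change (median -0.23). None fell without H111 or without DII135, and 1 fell without H114 or without DII136. Hmgcs1, an early enzyme of the mevalonate route, was at 11.6 to 21.6 CPM (median 17.2) in the HFD libraries and 7.02 to 15.6 CPM (median 12.7) in the Dose II libraries and fell by 0.49 ± 0.15 (adjusted p = 0.0689). Nsdhl, a late sterol enzyme, fell by 0.38 ± 0.11 (adjusted p = 0.0569). These calls were lost in 5 and 3 of the 20 fits without 1 library (adjusted p up to 0.137, without DII135, and 0.105, without H114). Pmvk, the phosphomevalonate kinase, rose by 0.26 ± 0.077 (adjusted p = 0.0569), a call that ended with the length-trend offsets (adjusted p = 0.399) and without H115 (adjusted p = 0.13). The regulator Srebf2 (-0.27 ± 0.13) did not pass. At Dose I the median of the same 18 genes was 0.0075, with none called.

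**Figure D3:**
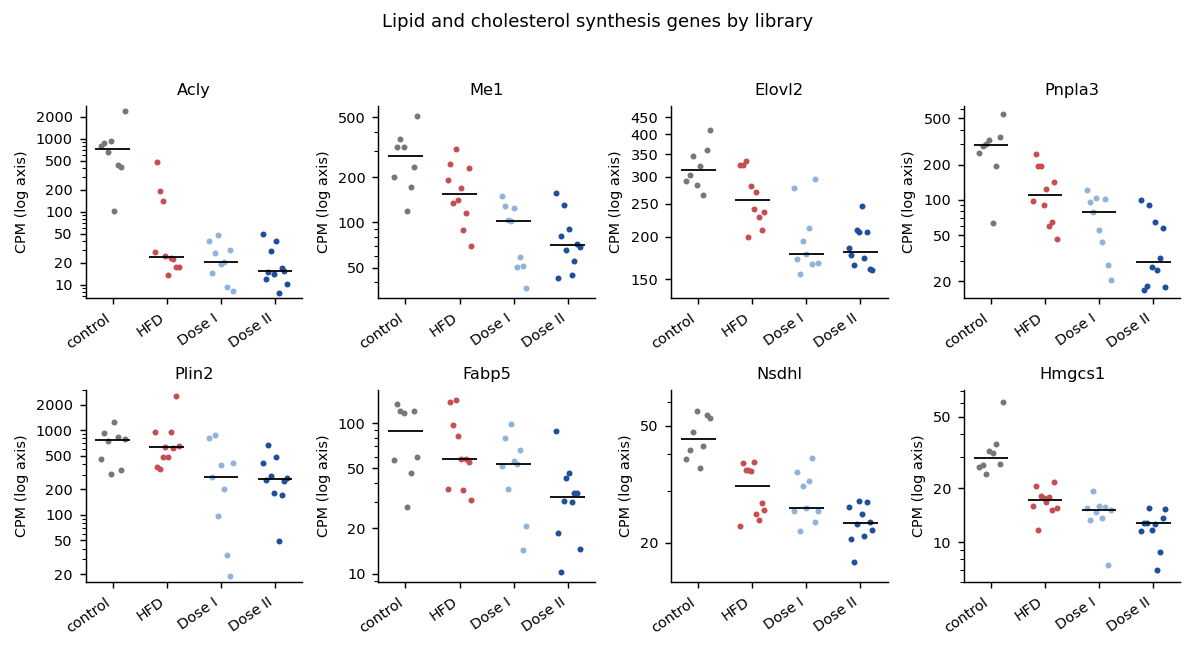
Level of 8 genes of fat synthesis, lipid droplets and cholesterol synthesis in each library, in CPM on log axes, for the 4 groups; each point is 1 library and each line the group median. The Dose II median lies below the HFD median in all 8 panels, and the ranges overlap in all 8, with 3 HFD libraries far above the others for Acly and 1 for Plin2.

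No call was made among 26 tested genes of sterol handling (median 0.041) or 25 of bile acid synthesis and transport (median -0.025). Cyp7a1, the rate-limiting enzyme of bile acid synthesis, was at -0.23 ± 0.40 and spread widely within both groups. Of 25 lipoprotein genes 1 rose (4%, beside 3.37% of all tested genes), Apoc4 (0.35 ± 0.11, adjusted p = 0.0692; not with the offsets), a call lost in 5 of the 10 alternative fits that tested it and in 10 of the 20 fits without 1 library (adjusted p up to 0.137, without H115), while Apob had a fold change of -0.18 ± 0.074 and Mttp, which loads lipid onto it, one of -0.13 ± 0.14. Of 37 genes of glucose and glycogen metabolism 1 rose (2.70%, below the 3.37% of all tested genes), Xylb, which phosphorylates xylulose (0.43 ± 0.12, adjusted p = 0.0529; 0.112 without DII135). Dcxr, the reductase of L-xylulose, which belongs to another list, was at 751 to 1076 CPM (median 891) in the HFD libraries and 902 to 1657 CPM (median 1331) in the Dose II libraries and rose by 0.56 ± 0.10 (adjusted p = 0.00218).

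Among 40 tested cytochrome P450s and enzymes for foreign compounds 8 rose and 1 fell (median 0.065), and 8 rose and 1 fell with the length-trend offsets too. Cyp26a1, the hydroxylase that clears retinoic acid, had the largest rise of all called genes, from 0.34 to 2.19 CPM (median 1.26) in HFD to 1.38 to 25.6 CPM (median 3.77) in Dose II, with 9 Dose II libraries above every HFD library (2.72 ± 0.53, adjusted p = 0.00333). It is expressed at a few CPM in most livers, and 3 Dose II libraries (DII130, DII133 and DII135) held 14.3, 14.1 and 25.6 CPM. Other retinoid genes moved less. Rara, a retinoic acid receptor, rose by 0.41 ± 0.12 (adjusted p = 0.0608), a call lost in 7 of the 20 fits without 1 library (adjusted p up to 0.117, without DII136). Rbp4, the plasma carrier of retinol, was at 2902 to 3361 CPM (median 3111) in the HFD libraries and 3052 to 3934 CPM (median 3656) in the Dose II libraries and rose by 0.23 ± 0.055 (adjusted p = 0.0167). Cyp26b1, the paralog of Cyp26a1, was at 0.94 ± 0.35 (adjusted p = 0.132) and Aldh1a1, which makes retinoic acid, at 0.038 ± 0.081, and neither passed.

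Nr1i3, the receptor CAR that drives drug-metabolizing genes, was at 189.9 to 308 CPM (median 267) in the HFD libraries and 257 to 446 CPM (median 348) in the Dose II libraries, with 9 Dose II libraries above all HFD libraries (0.44 ± 0.10, adjusted p = 0.00983). It and Rara were the 2 called of 38 tested nuclear receptors and liver transcription factors (median 0.15), or 5.26% beside 3.37% of all tested genes. Ppara, the receptor for fatty acids, was at -0.063 ± 0.21 without passing. Cyp4f14, a fatty acid and eicosanoid hydroxylase, rose by 0.44 ± 0.091 (adjusted p = 0.00532), Cbr3, a carbonyl reductase, by 0.55 ± 0.14 (adjusted p = 0.0202), and Cyp1b1, a target of the aryl hydrocarbon receptor, by 1.19 ± 0.32 (adjusted p = 0.0326). Aldh1b1, a mitochondrial aldehyde dehydrogenase, fell by 0.41 ± 0.11 (adjusted p = 0.0361). The main drug enzyme of the pericentral zone, Cyp2e1, was at 0.15 ± 0.068 without passing. Of 49 plasma protein genes 2 rose (4.08%, beside 3.37% of all tested genes), Rbp4 and Igfbp4, a carrier of insulin-like growth factors (0.35 ± 0.074, adjusted p = 0.00671).

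Macrophage markers held the largest share of falls among the 52 lists. Of 36 listed Kupffer cell and macrophage genes 24 were tested, 9 fell, none rose and 23 had a negative fold change (median -0.40); 11 fell with the length-trend offsets. Mmp12, the macrophage elastase, was at 12.4 to 32.1 CPM (median 19.7) in the HFD libraries and 8.95 to 13.6 CPM (median 11.1) in the Dose II libraries, with 9 Dose II libraries below every HFD library (-0.94 ± 0.16, adjusted p = 0.000687). Cd5l, a secreted protein of tissue macrophages, was at 33 to 62.7 CPM (median 45.6) in the HFD libraries and 19.5 to 42.5 CPM (median 32.2) in the Dose II libraries and fell by 0.56 ± 0.14 (adjusted p = 0.0172). Marco, a scavenger receptor, was at 63.4 to 112.4 CPM (median 91.5) in the HFD libraries and 38.6 to 98 CPM (median 56.1) in the Dose II libraries and fell by 0.52 ± 0.14 (adjusted p = 0.0368). In each of the 3 most Dose II libraries lay below the HFD range. Kupffer cell markers proper were among the calls: Timd4 fell by 0.66 ± 0.18 (adjusted p = 0.0387), Clec4f fell by 0.48 ± 0.15 (adjusted p = 0.0608) and Adgre1 fell by 0.65 ± 0.21 (adjusted p = 0.0794), together with Csf1r, the growth factor receptor of the lineage (-0.38 ± 0.12, adjusted p = 0.0642).

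The calls of the list were uneven in firmness. Mmp12, Cd5l, Marco and Timd4 passed in each of the 20 fits without 1 library. Clec4f did not pass without DII135 (adjusted p = 0.117), and Csf1r, Adgre1, Tyrobp and Mpeg1 were lost in 4, 7, 10 and 12 of them, with adjusted p up to 0.118 (without H117) for Csf1r and 0.144, 0.165 and 0.172 (without DII135) for the other three. The number that fell ran from 4 (without DII135) to 11 over these fits and was 3 in a fit of all 38 libraries. The complement genes C1qa (-0.19 ± 0.13), C1qb (-0.35 ± 0.13) and C1qc (-0.24 ± 0.16), which macrophages also make, did not pass. The summed level of the 24 genes was 567 to 973 CPM (median 752) in HFD and 410.5 to 744 CPM (median 559) in Dose II. At Dose I the median fold change of the same 24 genes was -0.44 with none called.

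Other cell types of the liver sinusoid leaned the same way. Of 22 tested endothelial markers 4 fell, none rose and 21 had a negative fold change (median -0.20), with 3 called with the length-trend offsets. Dnase1l3, a nuclease of sinusoidal endothelium and macrophages, was at 22.2 to 34.5 CPM (median 31.5) in the HFD libraries and 13.2 to 29.8 CPM (median 22.6) in the Dose II libraries and fell by 0.44 ± 0.12 (adjusted p = 0.0324). Cdh5, the cadherin of endothelial junctions, fell by 0.39 ± 0.11 (adjusted p = 0.052), Ptprb, a phosphatase of endothelium, fell by 0.60 ± 0.17 (adjusted p = 0.0478), and Lyve1, a marker of sinusoidal endothelium, fell by 0.49 ± 0.17 (adjusted p = 0.0981), a call lost in 12 of the 20 fits without 1 library (adjusted p up to 0.161, without DII136). The summed level of the list was 325 to 638 CPM in HFD and 307 to 431 CPM in Dose II. No stellate cell gene was called (26 tested, median -0.17), nor any of 11 cholangiocyte genes (median -0.074), 6 lymphocyte genes (median -0.20), 4 neutrophil genes (median 0.061) or the 1 erythroid gene tested (-0.18). No listed marker was at 0 in all libraries.

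Of 24 tested interferon and antigen presentation genes 3 fell and none rose (median -0.26), and over the fits without 1 library 1 (without H114 or DII135, among others) to 7 (without DII134) fell. Gbp7, a guanylate-binding protein induced by interferon gamma, was at 27.3 to 72.6 CPM (median 46.4) in the HFD libraries and 16.7 to 41.6 CPM (median 24.9) in the Dose II libraries and fell by 0.80 ± 0.21 (adjusted p = 0.0326). Its relative Gbp2 fell by 0.62 ± 0.20 (adjusted p = 0.0831) and Ddx58, the RNA sensor RIG-I, fell by 0.48 ± 0.16 (adjusted p = 0.0907), calls lost in 10 and 9 of the 20 fits without 1 library (adjusted p up to 0.134, without DII135, and 0.179, without H111). Guanylate-binding proteins are a family of similar genes that can share reads. Of the 24 macrophage markers 9 fell in the same comparison (their sums are given above), and their part in the endothelial and interferon results was not tested. No proliferation gene was called among the 9 tested (median -0.13).

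**Figure D4:**
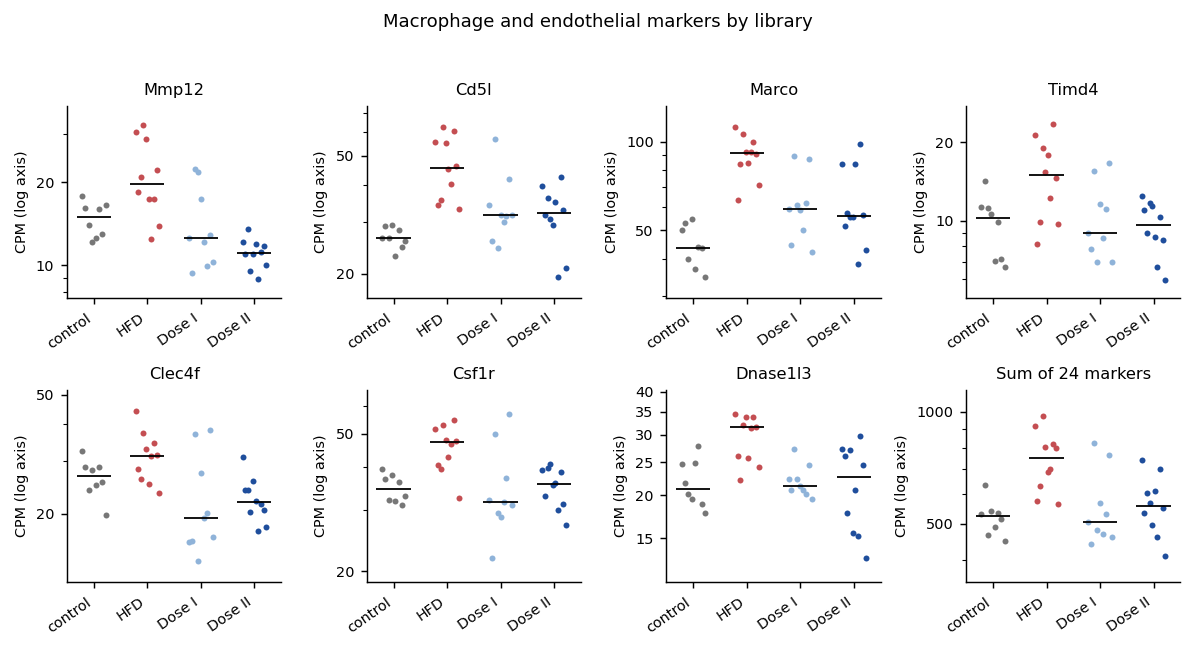
Level of 6 macrophage markers, the endothelial and macrophage nuclease Dnase1l3 and the sum of the 24 tested macrophage markers in each library, in CPM on log axes, for the 4 groups; each point is 1 library and each line the group median. The Dose II median lies below the HFD median in every panel, with 9 of 10 Dose II libraries below all HFD libraries for Mmp12.

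Transport between the endoplasmic reticulum and the Golgi showed mostly falls. Of 60 tested genes 7 fell and 1 rose (median -0.089), and 5 fell and 1 rose with the length-trend offsets. Without DII133 15 fell and without H113 12 fell. Tmed3, a cargo receptor of the p24 family, was at 11.1 to 18.4 CPM (median 13.9) in the HFD libraries and 7.25 to 12.7 CPM (median 8.64) in the Dose II libraries, with 8 Dose II libraries below all HFD libraries (-0.65 ± 0.11, adjusted p = 0.000687). A pair of coat subunits of the COPI vesicles that return proteins from the Golgi fell by small and even amounts. Copb2 fell by 0.30 ± 0.058 (adjusted p = 0.0027) and Copb1 fell by 0.29 ± 0.069 (adjusted p = 0.0132), and the subunit Copg2 fell by 0.25 ± 0.075 (adjusted p = 0.0578). Copb2 was at 104.4 to 133.9 CPM (median 125.3) in the HFD libraries and 86.6 to 112.8 CPM (median 103.4) in the Dose II libraries. Srpr, a receptor for the signal recognition particle, fell by 0.24 ± 0.059 (adjusted p = 0.0214), and the golgins Golga5 and Golgb1 fell by 0.33 and 0.28. Copg2 and Golgb1 were not called with the offsets, and with 1 library left out adjusted p reached 0.116 for Copg2 (without DII135), 0.101 for Golga5 (without H116) and 0.124 for Golgb1 (without DII137). Arf5, a small GTPase of the Golgi, rose by 0.28 ± 0.077 (adjusted p = 0.042). None of 30 tested genes of endoplasmic reticulum stress (median -0.028), 36 of the proteasome (median -0.023) or 37 of autophagy (median 0.016) was called. Of 62 lysosomal genes 3 rose (4.84%) and 2 fell (3.23%), beside 3.37% and 2.25% of all tested genes, and the median of the list was -0.0060. The 2 that fell, Lgmn, an endopeptidase (-0.46 ± 0.11, adjusted p = 0.013), and Acp5, an acid phosphatase (-0.62 ± 0.20, adjusted p = 0.0836), are also expressed by macrophages, and the 3 that rose were Gaa, the acid glucosidase (0.35 ± 0.10, adjusted p = 0.052), Ppt2 (0.36 ± 0.12, adjusted p = 0.0827) and Atp6v0e (0.37 ± 0.10, adjusted p = 0.0442). Without DII131 the 3 that rose did not pass (adjusted p = 0.119, 0.176 and 0.131), and without DII135 Acp5 did not (adjusted p = 0.152).

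Base excision repair held 2 of the 12 smallest p-values among genes that rose. Apex1, the endonuclease that cuts at abasic sites, was at 37.4 to 64 CPM (median 48) in the HFD libraries and 56.3 to 78.7 CPM (median 67.6) in the Dose II libraries, with 7 Dose II libraries above the HFD range (0.49 ± 0.082, adjusted p = 0.000743). Ung, the glycosylase that removes uracil from DNA, was at 30.9 to 62.5 CPM (median 43.4) in the HFD libraries and 52.5 to 85.1 CPM (median 64) in the Dose II libraries (0.55 ± 0.10, adjusted p = 0.00166). Of 28 tested genes of base excision repair and replication 4 rose and none fell, and the median of the list was -0.034. The other 2, the glycosylase Nthl1 (0.36 ± 0.11, adjusted p = 0.0642) and the scaffold Xrcc1 (0.34 ± 0.11, adjusted p = 0.0864), act in the same repair route, and their calls were lost in 5 and 11 of the 20 fits without 1 library (adjusted p up to 0.149, without DII131, and 0.168, without H115). Of 33 tested genes of transcription and splicing 2 rose (6.06%, beside 3.37% of all tested genes), both subunits of RNA polymerase II. They were Polr2i (0.55 ± 0.13, adjusted p = 0.0151) and Polr2h (0.28 ± 0.093, adjusted p = 0.089). Polr2h was not called with the length-trend offsets nor without DII131 (adjusted p = 0.17).

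In the amino acid stress response 2 of 14 tested genes rose (14.3%) and 1 fell (7.14%), beside 3.37% and 2.25% of all tested genes. Sesn1, a sestrin that restrains mTORC1, rose by 0.60 ± 0.15 (adjusted p = 0.0214), and Eif4ebp1, a repressor of cap-dependent translation, by 0.51 ± 0.14 (adjusted p = 0.0324). The 1 that fell was Phgdh. Of 16 clock genes 1 rose (6.25%, beside 3.37% of all tested genes). It was Tef, a transcription factor of clock output, which rose by 0.77 ± 0.23 (adjusted p = 0.0571). Its call was lost in 6 of the 20 fits without 1 library (adjusted p up to 0.114, without DII135).

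Several of the strongest single genes lie outside metabolism. Pnkd, named for a movement disorder and predicted to act as a hydrolase, was at 7.18 to 22.7 CPM (median 13.5) in the HFD libraries and 16.8 to 41.4 CPM (median 33.2) in the Dose II libraries and rose by 1.11 ± 0.20 (adjusted p = 0.00181). Esyt3, a tether between the endoplasmic reticulum and the plasma membrane, was at 1.13 to 8.33 CPM (median 5.14) in the HFD libraries and 6.3 to 18.9 CPM (median 12.2) in the Dose II libraries (1.21 ± 0.22, adjusted p = 0.00202). For Pnkd 7 and for Esyt3 9 Dose II libraries lay above all HFD libraries. Retreg1, a receptor for the autophagy of the endoplasmic reticulum, was at 5.21 to 25.1 CPM (median 14.3) in the HFD libraries and 19.1 to 61.4 CPM (median 41.5) in the Dose II libraries (1.38 ± 0.33, adjusted p = 0.0144). Nrg4, a growth factor of the neuregulin family, rose by 1.41 ± 0.40 (adjusted p = 0.0489), a call lost without DII131 (adjusted p = 0.157), and Pde6h, a phosphodiesterase subunit, by 2.60 ± 0.60 (adjusted p = 0.011). Pde6h was at 0 to 1.95 CPM (median 0.496) in the HFD libraries and 0 to 6.61 CPM (median 3.27) in the Dose II libraries, a level of a few reads.

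Several other single genes were among the strongest falls. Abi1, a subunit of the WAVE complex that starts actin branching, was at 38.1 to 43.1 CPM (median 41.5) in the HFD libraries and 24.4 to 37 CPM (median 31.7) in the Dose II libraries, the only tested gene for which all Dose II libraries lay below all HFD libraries (-0.36 ± 0.063, adjusted p = 0.00088). Twf1, twinfilin, which caps actin, was at 60 to 77.2 CPM (median 69.3) in the HFD libraries and 43.5 to 60.3 CPM (median 53.3) in the Dose II libraries (-0.38 ± 0.077, adjusted p = 0.00425), and Mylk, the myosin light chain kinase, at 21 to 57 CPM (median 34.1) in the HFD libraries and 8.81 to 23.9 CPM (median 18.2) in the Dose II libraries (-1.03 ± 0.20, adjusted p = 0.00333). Lgals8, a galectin, fell by 0.73 ± 0.14 (adjusted p = 0.0027), Nrp1, a co-receptor of semaphorins and VEGF on endothelium and other cells, fell by 0.77 ± 0.16 (adjusted p = 0.0055), and Fam3c, a secreted protein, fell by 0.48 ± 0.10 (adjusted p = 0.0055). Fgf1, a fibroblast growth factor, was at 1.85 to 5.78 CPM (median 2.88) in the HFD libraries and 0.351 to 2.88 CPM (median 0.927) in the Dose II libraries (-1.39 ± 0.30, adjusted p = 0.00671), Ptpn13, a tyrosine phosphatase, at 1.18 to 3.09 CPM (median 2.35) in the HFD libraries and 0.508 to 1.18 CPM (median 0.705) in the Dose II libraries (-1.52 ± 0.29, adjusted p = 0.0027), and Gdpd2, a glycerophosphodiesterase, at 3.73 to 6.96 CPM (median 4.8) in the HFD libraries and 2.3 to 4.43 CPM (median 3.03) in the Dose II libraries (-0.75 ± 0.15, adjusted p = 0.00514). Fgf1, Ptpn13 and Gdpd2 were thus all at low levels. The call of Fgf1 was lost with limma-trend on log2(TPM + 1) (adjusted p = 0.906).

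The other large falls also rested on low or uneven levels. Cpxm2, a carboxypeptidase-like protein, was at 0.887 to 12.8 CPM (median 4.12) in the HFD libraries and 0.344 to 2.61 CPM (median 0.807) in the Dose II libraries and fell by 1.96 ± 0.48 (adjusted p = 0.0166). Grid2ip fell by 1.73 ± 0.47 (adjusted p = 0.0338), Slc5a8, a sodium-coupled monocarboxylate transporter, fell by 1.70 ± 0.48 (adjusted p = 0.0467), and Ceacam16 fell by 1.67 ± 0.45 (adjusted p = 0.0338). Each of these 3 lost its call when 1 HFD library was left out: Grid2ip without H118 (adjusted p = 0.145), Slc5a8 without H110 (adjusted p = 0.147) and Ceacam16 without H110 (adjusted p = 0.185).

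The lower dose was set against the same 10 HFD libraries, so its values and those of Dose II are not independent. Dose I called 14 genes up (0.154% of tested genes) and 3 down (0.0330%). Among genes that rose at Dose II the median log2 fold change was 0.40 at Dose II and 0.25 at Dose I, and among genes that fell it was -0.47 and -0.28; the first value of each pair chose the genes. At Dose I Dmgdh was at 0.55 ± 0.088 (adjusted p = 0.00168), Sult1a1 at 1.58 ± 0.26 (adjusted p = 0.00168), Cyp26a1 at 2.60 ± 0.55 (adjusted p = 0.0492) and Tmed3 at -0.57 ± 0.11 (adjusted p = 0.0249). Gnmt was at 0.81 ± 0.19 (adjusted p = 0.0924) and Bhmt2 at 0.56 ± 0.13 (adjusted p = 0.0924). For Apex1 the Dose I value was 0.19 ± 0.085 (adjusted p = 0.489), and for Pnpla3 it was -0.81 ± 0.37 (adjusted p = 0.489). The difference between the doses was tested directly. No gene passed in Dose II vs. Dose I (0.00% of tested genes) with edgeR, and none with DESeq2. At an unadjusted p under 0.05 there were 271 of 9099 tested genes with edgeR and 336 of 12976 with DESeq2. Both are under a share of 0.05, the share that this threshold would give if no gene differed. The smallest adjusted p of the edgeR test was 0.9999. For Apex1 the difference between the doses was 0.30 ± 0.085, for Dmgdh 0.20 ± 0.088 and for Gnmt 0.44 ± 0.19. These genes were chosen by their small p-values at Dose II, which can widen the difference, so it cannot be used to compare the doses. A test without calls does not show that the doses acted alike.

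**Figure D5:**
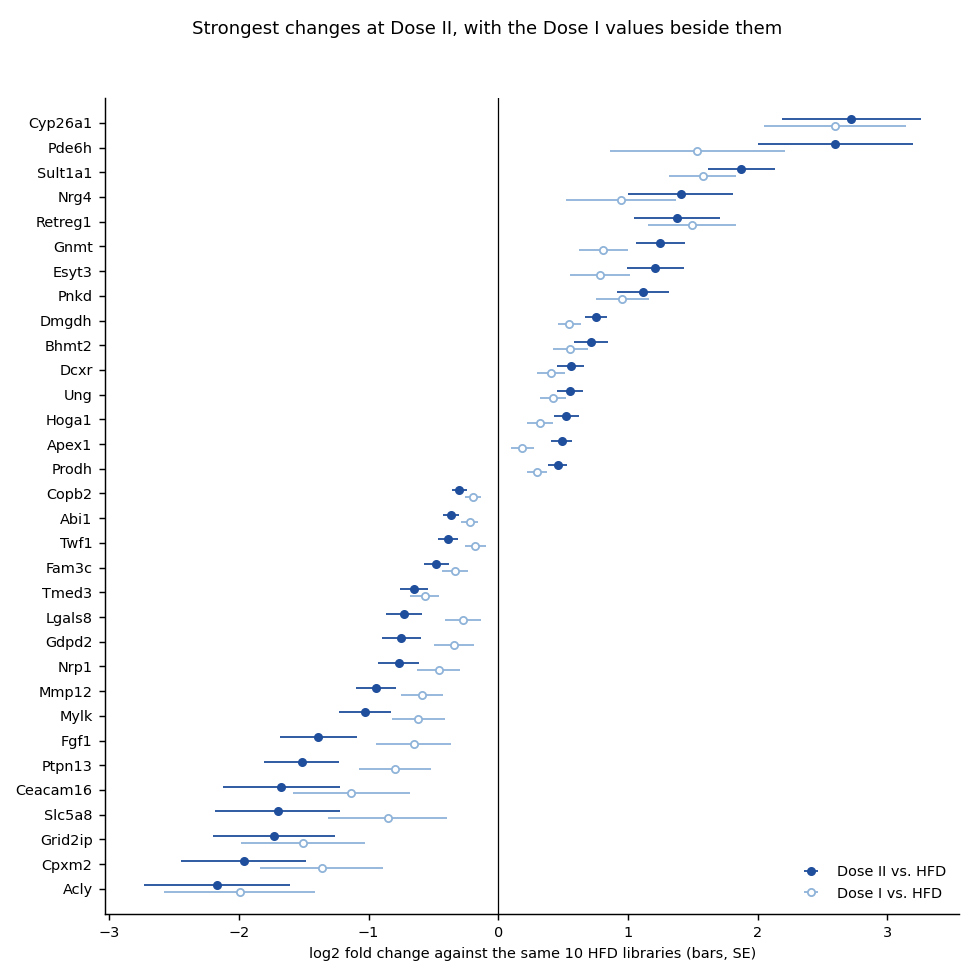
Log2 fold change with its SE for genes with the smallest p-values or largest fold changes at Dose II, for Dose II (filled) and Dose I (open) against the same 10 HFD libraries. The genes were chosen by their Dose II values, and no gene passed the direct test of the difference between the doses.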

How the data were processed

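The series holds 38 RNA-seq libraries of hamster liver mRNA, 1 column each, of which 20 form the comparison. The authors quantified reads with Kallisto (version not given in the sources used here) with MesAur1.0 as the reference. What they deposited were estimated counts without normalization and TPM, both summed to gene symbols. Kallisto divides reads shared by similar transcripts, so values of near-identical genes are uncertain. Estimated counts were rounded to whole numbers.

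Tests were run with edgeR 4.0.16 (R 4.3.3): filterByExpr on the 4 groups, TMM scaling, glmQLFit with 1 coefficient per group over 37 libraries, glmQLFTest and Benjamini-Hochberg adjustment over all 9099 tested genes, with the threshold of 0.1 that the study used. Of the control libraries 1 was left out, as in the study's own analysis; which one was identified in an earlier analysis of these data. The SE was obtained as |log2 fold change| / √F. CPM uses TMM-scaled totals. Total counts were 4743240 to 8417320 over the 20 libraries, and precision is limited by counting error at low CPM and by the 10 libraries per group. In simulated counts for 9049 genes the test recovered 94% of changes of log2 1.0 and 65.7% of changes of log2 0.5. The simulated libraries were drawn independently around 1 mean per gene, without a length trend or outlying libraries. The rates may therefore be too high for the real libraries. No 2 libraries of the same group agreed within sampling noise, and pairs across groups were not compared. Principal components used log2 CPM with a prior count of 2, with a permutation test of 100000 resamples.

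Alternatives were DESeq2 1.42.0, limma 3.58.1 on log2(TPM + 1), all 38 libraries, the 20 libraries alone, RLE or no scaling, other filters, a robust spread, a threshold of 0.05, each library left out, and offsets from each library's lowess trend (span 0.3) of its deviation with transcript length, taken from the ratio of counts to TPM. The length of a gene is given relative to a common unit.

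Named genes were the 12 with the smallest p-values and the 5 with the largest fold changes in each direction among called genes with a mean of at least 1 CPM, up to 6 members of each of 52 gene lists by p-value, and other list members where a pathway step or paralogs are described. The groups compared, the lists and this rule were chosen with earlier results of these data known. Lists are described by counts and medians and were not tested as sets. No labels pair the libraries or name litters or batches, so p-values measure the spread between these libraries. A few genes that entered the fits and counts are not reported here by name.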

Additional observations from a re-analysis of the deposited data

Results flagged for a closer look

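In each group of 10 libraries, the highest and the lowest log2 CPM of each of 163 called genes named by rule or in the text, and the score on the first principal component, were set against the nearest other library. The gap was divided by the range of the group and flagged above 0.466, Dixon's critical value for 10 samples. Of 328 groups tested 21 were flagged, and chance flags about 1 in 20 groups.

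In the HFD group, H118 lay below the others for Esyt3 (gap 0.6136 of the range, 1.127 CPM against a group median of 5.141), Acsm1 (0.6289) and Nr1i3 (0.6036), all of which rose at Dose II, and above the others for Plin2 (0.4924, 2555 CPM against a median of 629.5), which fell. H113 was low for Hoga1 (0.4695) and Copb2 (0.5226) and high for Romo1 (0.4707). H110 was high for Prdx5 (0.5685), H111 for Ddx58 (0.5484) and H116 for Tmco6 (0.4853).

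In the Dose II group, DII133 lay below the others for the ribosomal protein genes Rpl30 (0.6903) and Rps28 (0.4783), for the mitochondrial genes Chchd1 (0.6787) and Romo1 (0.4678), and for Cbr3 (0.6672). DII131 was high for Pdk2 (0.559) and Atp6v0e (0.5662) and low for Cth (0.4896). DII135 was low for Plin2 (0.4761, 49.29 CPM against a median of 264.6) and Nrp1 (0.5072) and high for Ppfia1 (0.5762). The calls of Plin2 (without H118 or DII135), Ddx58 (without H111) and Atp6v0e (without DII131) ended when the library named for them was left out, and those of the other genes named here did not.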

How the results depend on the processing

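The signs of the called genes held, while the number of calls and the balance of directions moved. The refits reuse the libraries that chose these genes, so a change of sign was unlikely in advance. Of the 512 called genes, 0 changed sign in the 10 alternative fits, 175 were called in all 10 of them, 223 in all 20 fits without 1 library and 159 in all 30. The number of genes changed at Dose II was 244 with all 38 libraries (1.63% rose, 1.07% fell) and 230 at a threshold of 0.05 (1.68% and 0.846%). Without scaling beyond library totals 2.12% rose, without a filter on low counts 2.01% rose and 0.971% fell of 12976 genes, and on log2(TPM + 1) 1.66% rose and 4.82% fell. With DESeq2, RLE scaling, the 20 libraries alone, a strict filter, length-trend offsets or a robust spread the counts stayed within 1.5 times. Leaving out 1 library gave 300 (without DII135) to 629 genes (without H110), also 328 without H114 and 339 without DII136, with 2.06% to 4.29% that rose and 1.24% to 3.16% that fell. Dose I vs. HFD gave 17 genes, 79 with DESeq2, 5 with all 38 libraries and 6 with its own libraries alone, and Dose II vs. Dose I gave 0 under each of these. The first principal component over all tested genes differed by 4.891 between the groups (permutation p = 0.4488), short of the threshold. The cause of these shifts was not tested, apart from the smaller number of libraries or the larger number of genes by construction.

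Of 163 called genes named in the text or by rule, 0 lost their call with DESeq2, 68 with all 38 libraries, 22 with the 20 libraries alone, 9 with RLE scaling, 30 with no scaling, 25 with no filter, 1 with the strict filter, 35 with length-trend offsets, 48 on log2(TPM + 1), 6 with the robust spread and 64 at 0.05, and none reversed. No paired analysis was possible because the groups share no replicate numbers. Depth limits genes of a few CPM, such as Cyp26a1, Pde6h and Grid2ip. The call of Grid2ip was lost without H118 (adjusted p = 0.145), and those of Cyp26a1 and Pde6h were kept in all 20 fits without 1 library. That of Pde6h was lost with limma-trend on log2(TPM + 1) (adjusted p = 0.102).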

Other observations

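The 3 genes below lie outside the lists above and were chosen after their values were seen. Mt2a, a metallothionein, which binds zinc and copper, was at 259 to 811 CPM (median 437) in the HFD libraries and 289 to 1764 CPM (median 1087) in the Dose II libraries, with 7 Dose II libraries above all HFD libraries and DII137 the lowest of its group. Its log2 fold change was 1.10 ± 0.26 (adjusted p = 0.0124, edgeR). Snai3, a transcription factor of the Snail family, was at 42.7 to 114.9 CPM (median 70.7) in the HFD libraries and 86.5 to 218 CPM (median 118.4) in the Dose II libraries and rose by 0.87 ± 0.17 (adjusted p = 0.0027, edgeR). Tlr3, a receptor for double-stranded RNA, was at 13.8 to 27.5 CPM (median 20.5) in the HFD libraries and 21.5 to 51.7 CPM (median 33.3) in the Dose II libraries and rose by 0.73 ± 0.14 (adjusted p = 0.0027, edgeR), while Ddx58, a cytosolic sensor of viral RNA, fell by 0.48 ± 0.16 (adjusted p = 0.0907). The calls of Mt2a, Snai3 and Tlr3 were kept in all 20 fits without 1 library and in the alternative fits.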
